A study of Rattus norvegicus with 10 samples.

Results

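The genes described here make and turn over the polyamines putrescine, spermidine and spermine, and were measured in the nasal transitional epithelium of rats given N,N-dimethyl-p-toluidine (DMPT). The members are Odc1, Amd1, Srm, Sms, Sat1, Oaz1, Oaz2 and Azin1, 8 genes chosen for their role in the pathway. They were taken as every probe set whose only annotated symbol was one of these names, which gave 12 of the 31042 probe sets tested. DMPT is an aromatic amine used to start the hardening of acrylic cements. The DMPT group was given 120 mg/kg/day by gavage in corn oil for 5 days and the vehicle group the corn oil alone. All animals were male F344/N rats aged 5 to 6 weeks at the start. Each group holds 5 arrays, each from its own animal, and the epithelium was cut from the nasal cavity by laser capture microdissection. Values are log2 expression values per probe set, differences are DMPT minus vehicle, and a probe set passed where its adjusted p from limma, over all probe sets, was under 0.05.

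Polyamines are small positively charged molecules that bind nucleic acids and are needed for growth and for translation. Ornithine decarboxylase (Odc1) makes putrescine, S-adenosylmethionine decarboxylase (Amd1) supplies the aminopropyl groups, and spermidine synthase (Srm) and spermine synthase (Sms) add them in turn. Spermidine/spermine acetyltransferase (Sat1) opens the way back and to export. Antizymes (Oaz1, Oaz2) bind ornithine decarboxylase and send it to the proteasome, and the antizyme inhibitor (Azin1), a relative of the enzyme without its activity, holds antizyme back. Odc1, Amd1, Sat1 and the antizymes are controlled strongly at the level of translation and protein stability, which transcript arrays do not measure.

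The arrays had medians between 8.21 and 8.35, and their correlations with the other arrays of their group averaged between 0.975 and 0.991. Vehicle replicate 2 had the lowest of these averages, the others being 0.985 or above. It was the lowest vehicle array for 7 of the 12 member probe sets and the highest for 2, while over all probe sets it was the lowest for 24.1%. A measure of RNA breakdown, the 3' minus 5' log2 difference averaged over the controls for GAPDH and beta-actin, ran from 1.17 to 1.50 with vehicle and from 0.873 to 1.30 after DMPT. Vehicle replicate 2 had the highest value. The group means differed by -0.18 (two-sided exact permutation test, p = 0.143). Of 9 measured epithelial markers, all were brighter than the median probe set, 3 were higher after DMPT and 0 lower. The average level of these markers ran from 12.8 to 12.9 with vehicle and from 13.0 to 13.1 after DMPT.

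Among the 8 genes, the transcript of spermidine synthase rose after DMPT and the other 7 did not pass the test. Of the 12 probe sets, 1 was higher and 0 were lower (8.33%), where 11.1% of all probe sets passed, 5.37% as higher and 5.74% as lower. The median difference of the 12 was 0.059 and the median of their sizes 0.073, against -0.017 and 0.16 over all probe sets. In the exact permutation test, 2 of the 12 had a p under 0.05 (16.7%), those of Srm and Amd1, where 24.5% of all probe sets did. The arrays measure RNA of the whole captured tissue, so more cells of a type and more RNA per cell cannot be told apart.

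**Figure D1:**
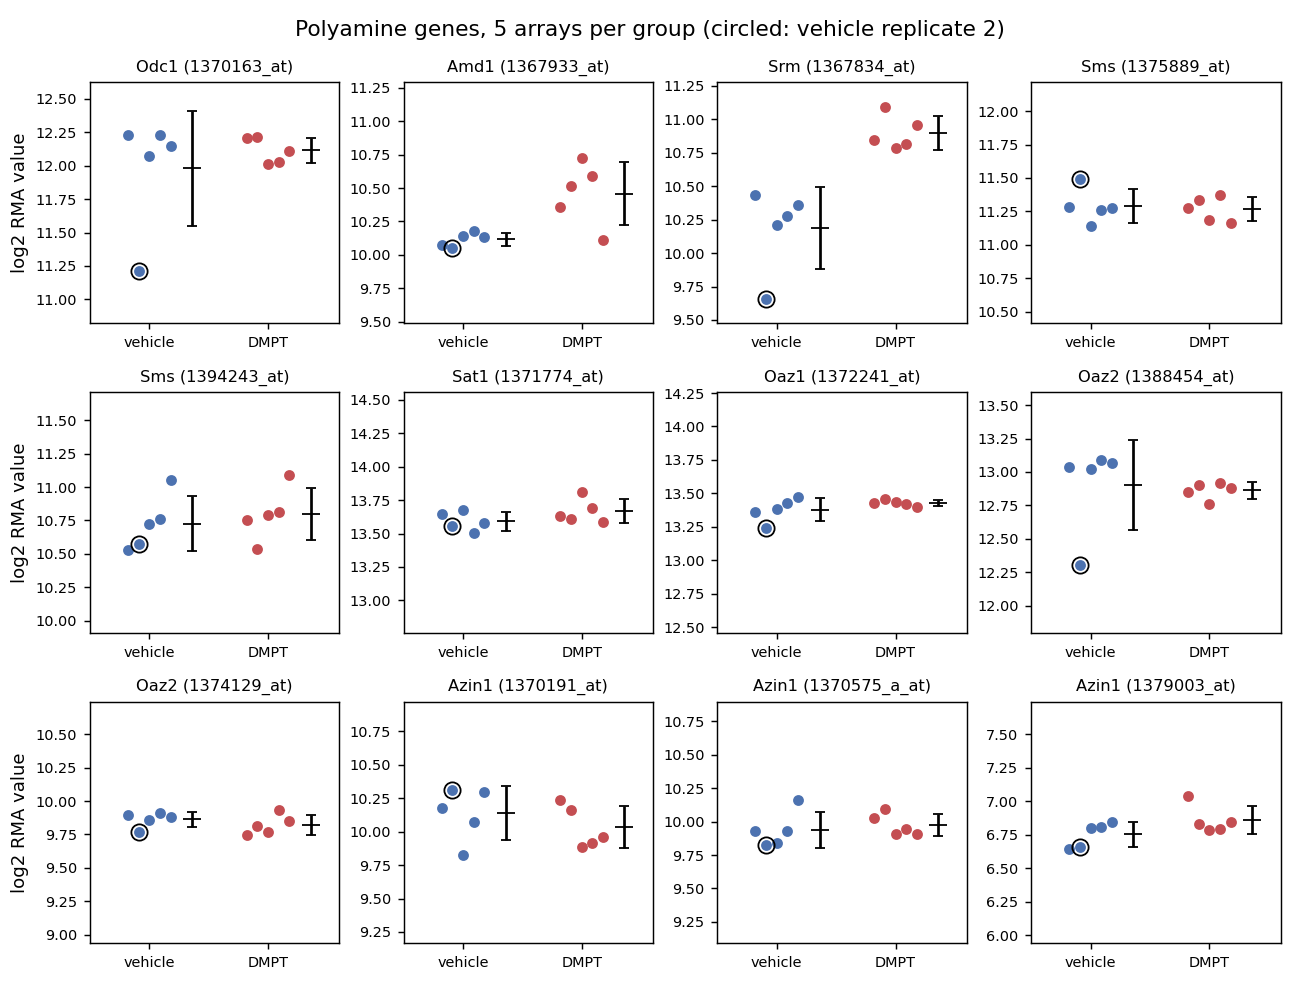
Log2 expression value (vertical axis) of each member probe set in the 5 vehicle arrays (blue) and 5 DMPT arrays (red); black bars are the group mean and SD, each panel spans the same log2 range, and vehicle replicate 2 is circled. The groups separate for Srm, 4 of 5 DMPT arrays lie above vehicle for Amd1, and the circled array lies far below the other vehicle arrays for Odc1, Srm and the brighter Oaz2 probe set.

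Srm, which joins an aminopropyl group to putrescine to give spermidine, was measured by 1 probe set (1367834_at). Its log2 value was 10.43, 9.66, 10.21, 10.28 and 10.36 in vehicle replicates 1 to 5. After DMPT it was 10.84, 11.09, 10.78, 10.81 and 10.96. Every DMPT array was above every vehicle array, a separation seen in 5.82% of all probe sets in this direction and in 11.0% in either. The mean was 10.19 ± 0.31 (SD, n = 5) with vehicle and 10.90 ± 0.13 after DMPT. The difference was 0.71 ± 0.14 (SE), or 1.64-fold with a 95% interval from 1.32 to 2.03 (adjusted p = 0.00834). The exact permutation p was 0.00794, the smallest that 5 against 5 arrays allow. Vehicle replicate 2 lay well below its group. Without it the rise was smaller but still passed, at 0.58 (adjusted p = 0.00239), and with the RNA breakdown measure as a covariate it was 0.60 (adjusted p = 0.0480).

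The stretch upstream of Srm is shown because Srm was the member that passed, and that of Oaz1 because it holds the same motif and did not. Promoter sequences of 7 of the 8 members were found in the RefSeq table of build GRCr8. The 250 bases before the transcript start that the table uses were searched on both strands for CACGTG, the E-box bound by MYC and related factors, and for TGACNNNGC, the core of the antioxidant response element. The motifs did not overlap in the sequences shown. CACGTG, capitalised below, was found once each in Srm and Oaz1 and in none of the other 5 windows, and in 5.59% of all promoters of this length. It begins 173 bases before the start of Srm (plus strand, chr5:164308752-164309001) and 234 bases before that of Oaz1 (minus strand, chr7:9536991-9537240). The windows of Srm, Sat1, Oaz1 and Oaz2 end at the annotated start of the gene, and those of Odc1, Amd1 and Sms at another start within it, so the stretch before the gene's own start was not searched in full for these 3. TGACNNNGC was found in 1 member, Oaz1, and in 10.1% of all promoters.
Srm: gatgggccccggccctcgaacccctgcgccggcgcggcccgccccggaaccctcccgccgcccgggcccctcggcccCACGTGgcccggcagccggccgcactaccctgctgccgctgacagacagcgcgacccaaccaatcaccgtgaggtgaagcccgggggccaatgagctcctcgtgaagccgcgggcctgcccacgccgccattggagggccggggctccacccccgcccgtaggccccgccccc
Oaz1: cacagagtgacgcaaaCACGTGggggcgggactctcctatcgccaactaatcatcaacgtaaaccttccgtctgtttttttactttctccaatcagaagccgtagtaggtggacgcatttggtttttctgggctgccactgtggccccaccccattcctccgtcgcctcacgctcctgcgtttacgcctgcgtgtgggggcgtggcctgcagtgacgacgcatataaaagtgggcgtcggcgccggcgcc

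Sms, whose enzyme adds the next aminopropyl group and turns spermidine into spermine, did not pass with either of its 2 probe sets. The brighter (1375889_at) had values of 11.28, 11.49, 11.14, 11.26 and 11.28 with vehicle and 11.27, 11.33, 11.19, 11.38 and 11.17 after DMPT. The DMPT arrays all lay within the vehicle range, and the difference was -0.022 with a 95% interval from -0.22 to 0.17 (adjusted p = 0.920). The other (1394243_at) ran from 10.53 to 11.05 with vehicle and from 10.54 to 11.09 after DMPT, and differed by 0.070 ± 0.13. Set against Sms within each array, a contrast chosen after the values were seen, Srm shifted by 0.73 more than the first probe set (two-sided exact permutation p = 0.00794, 5 of 5 DMPT arrays above all vehicle arrays). Against the second, the shift was 0.64 (exact permutation p = 0.0159, 4 of 5 arrays above). Because the contrast was chosen with the values known, its p-values give no separate support for the rise of Srm. Vehicle replicate 2 was the lowest vehicle array for Srm (9.66) and the highest for the first Sms probe set (11.49), which widened the first shift.

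Amd1, whose product makes the decarboxylated S-adenosylmethionine that both synthases consume, was higher in 4 of 5 DMPT arrays but did not pass. Its values (1367933_at) were 10.08, 10.05, 10.14, 10.18 and 10.13 with vehicle, the narrowest vehicle spread among the members (SD 0.049). After DMPT they were 10.36, 10.51, 10.73, 10.59 and 10.11. DMPT replicate 5 lay inside the vehicle range and the other 4 DMPT arrays above it. The difference was 0.34 ± 0.11, or 1.27-fold (95% interval 1.07 to 1.51 as a fold; adjusted p = 0.0750), and the exact permutation p was 0.0317. Without DMPT replicate 5 it was 0.43 and passed (adjusted p = 0.0229). With any other single array left out it did not pass, and the values ran from 0.28 to 0.37. It passed narrowly (adjusted p = 0.0486) in a fit of 1 averaged value per gene.

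Odc1, the first enzyme of the pathway, did not pass, and the sign of its difference rested on 1 array. Its values (1370163_at) were 12.23, 11.22, 12.07, 12.23 and 12.15 with vehicle and 12.21, 12.21, 12.01, 12.03 and 12.11 after DMPT. Vehicle replicate 2 was far below all other arrays, and the other vehicle arrays covered about the same range as the DMPT arrays. The difference was 0.14 ± 0.18 (adjusted p = 0.709), with a 95% interval from -0.25 to 0.52. Without vehicle replicate 2 it was -0.056 (adjusted p = 0.721), and with the RNA breakdown measure as a covariate it was -0.050.

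**Figure D2:**
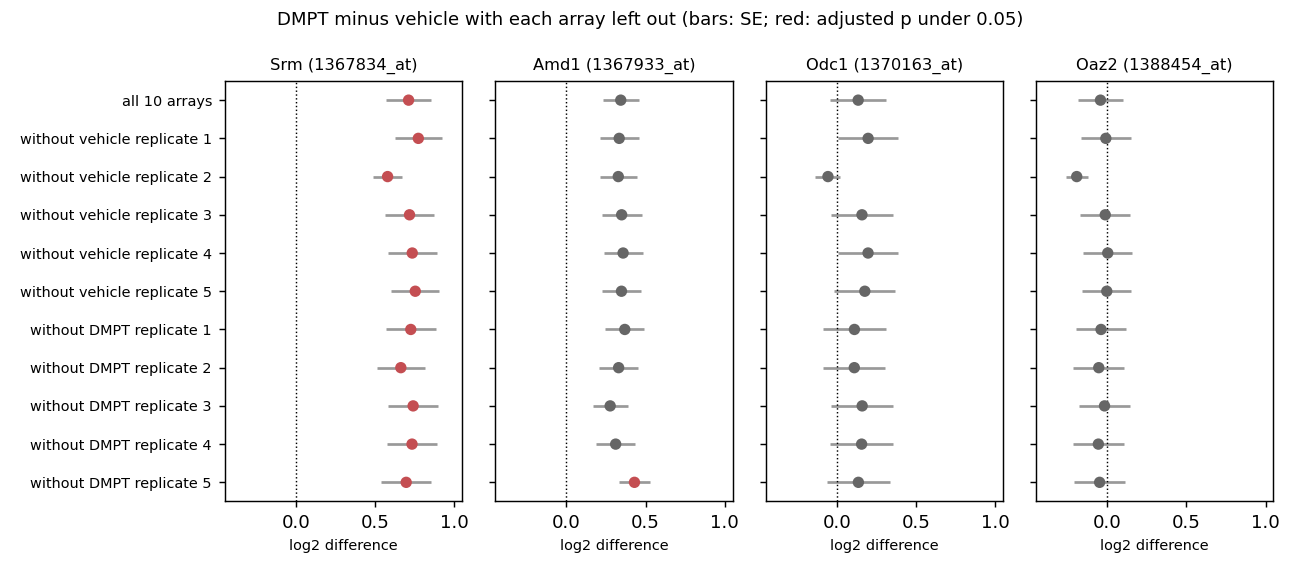
Log2 difference (DMPT minus vehicle, horizontal axis) for Srm, Amd1, Odc1 and the brighter Oaz2 probe set with all 10 arrays and with each array left out in turn; bars are standard errors and red marks an adjusted p under 0.05. Srm passed in every omission, Amd1 without DMPT replicate 5, and the differences of Odc1 and Oaz2 moved down to -0.056 and -0.19 without vehicle replicate 2.

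Sat1, which acetylates spermidine and spermine so that they can be oxidised or exported, was bright in all arrays and did not pass. Its values (1371774_at) were 13.65, 13.55, 13.68, 13.50 and 13.58 with vehicle and 13.63, 13.61, 13.81, 13.69 and 13.58 after DMPT. The groups overlapped, with 2 DMPT arrays above all vehicle arrays. The difference was 0.075 ± 0.081 (adjusted p = 0.638), with a 95% interval from -0.10 to 0.25. The brightest probe set of each array read between 14.6 and 14.9, so Sat1 and Oaz1 were measured near the top of the range, where differences can be compressed.

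Oaz1, the main antizyme, varied least after DMPT (SD 0.022). Its values (1372241_at) were 13.36, 13.24, 13.38, 13.43 and 13.47 with vehicle and 13.43, 13.46, 13.43, 13.42 and 13.40 after DMPT. All 5 DMPT arrays lay within the vehicle range. The difference was 0.049 ± 0.077 (adjusted p = 0.761), with a 95% interval from -0.12 to 0.22, and its sign turned to -0.027 after quantile normalization.

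Oaz2, the second antizyme, did not pass with either of its 2 probe sets. The brighter (1388454_at) was 13.04, 12.30, 13.03, 13.09 and 13.06 with vehicle and 12.85, 12.91, 12.76, 12.92 and 12.88 after DMPT. The 5 DMPT arrays lay below 4 vehicle arrays and above vehicle replicate 2. The difference was -0.042 ± 0.14 (adjusted p = 0.902). Leaving out vehicle replicate 2 moved it to -0.19 (adjusted p = 0.0960). The other probe set (1374129_at) differed by -0.042 ± 0.077, and its vehicle values, from 9.77 to 9.91, overlapped the DMPT values from 9.75 to 9.93.

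Azin1, the antizyme inhibitor, had 3 probe sets, and none passed. Their differences were -0.10 ± 0.12 (1370191_at), 0.039 ± 0.091 (1370575_a_at) and 0.11 ± 0.086 (1379003_at), and the lowest adjusted p was 0.511. The probe sets did not share a sign. The first ran from 9.82 to 10.31 with vehicle and from 9.89 to 10.24 after DMPT, and the second from 9.82 to 10.16 and from 9.90 to 10.09. The third was the dimmest member probe set and the only one dimmer than the median probe set, with values from 6.65 to 6.85 with vehicle and from 6.79 to 7.04 after DMPT.

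**Figure D3:**
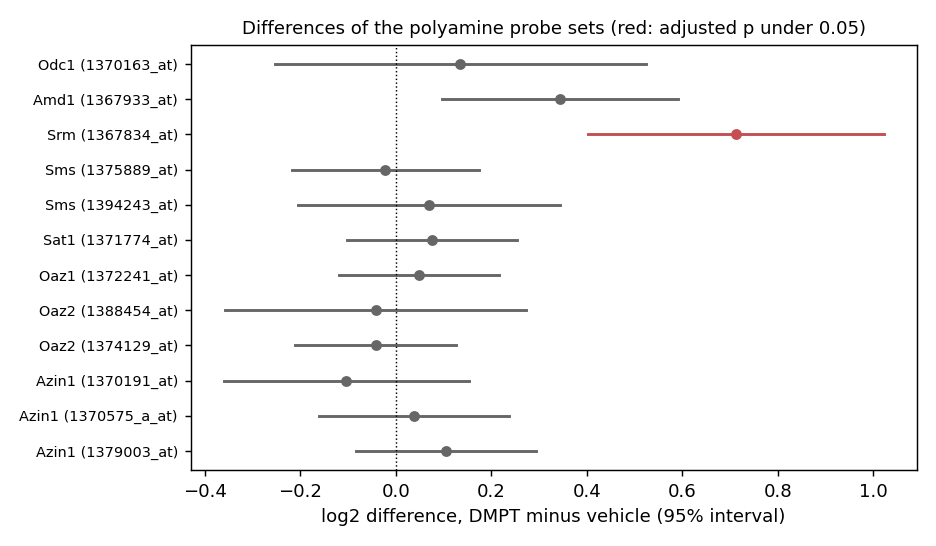
Log2 difference (DMPT minus vehicle, horizontal axis) of the 12 member probe sets with 95% intervals from limma; red marks an adjusted p under 0.05. The interval of Srm runs from 0.40 to 1.02, and those of the 11 probe sets that did not pass lie between -0.36 and 0.59.

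For the 11 probe sets that did not pass, the 95% intervals lay between -0.36 and 0.59, the upper end being that of Amd1. Missing the threshold does not show that these probe sets did not differ.

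Around these genes, 41 of 45 listed genes of polyamine supply, use, breakdown and transport were measured, each by its brightest probe set. After DMPT 4 were higher, 1 was lower and 36 did not pass. The share that passed was 12.2%, where 13.9% of all genes did, 7.13% as higher and 6.77% as lower. The median difference of the 41 was 0.076.

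S-adenosylmethionine supply and methionine salvage held 2 of the 4 higher genes, among 10 measured, where 7.13% of all genes passed as higher. Mtap, which clears methylthioadenosine, the by-product of both synthase steps, was 10.32, 10.01, 10.66, 10.32 and 10.51 with vehicle and 10.77, 11.11, 11.22, 11.01 and 11.04 after DMPT. The groups did not overlap, as in 13.9% of all genes, and Mtap rose by 0.67 ± 0.13, or 1.59-fold (adjusted p = 0.00717). Its 2 dimmer probe sets differed by 0.24 ± 0.29 and 0.099 ± 0.12 and did not pass, and the mean of the 3 differed by 0.34 (adjusted p = 0.140). Ahcy, which hydrolyses S-adenosylhomocysteine, rose by 0.51 ± 0.12, or 1.43-fold (adjusted p = 0.0161). Its vehicle values ran from 10.17 to 10.82 and its DMPT values from 10.82 to 11.09, which met but did not overlap. The median difference over the 10 genes was 0.038.

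Spermidine also gives the hypusine residue of the translation factor eIF5A. Of 4 genes of this step, 1 passed, as higher, where 7.13% of all genes did. Eif5a2, the less common form of the factor, rose by 0.63 ± 0.15, or 1.54-fold (adjusted p = 0.0177), with values from 5.24 to 5.55 with vehicle and from 5.65 to 6.36 after DMPT. It was dim, with a vehicle mean of 5.41, while the lower quartile of each array was between 6.37 and 6.51, so the size of the rise is uncertain, and a second probe set differed by 0.41 ± 0.15 (adjusted p = 0.0984). Eif5a, the common form, differed by 0.28 ± 0.10 and did not pass (adjusted p = 0.115). Its DMPT values, from 12.01 to 12.22, lay just above its vehicle values, from 11.53 to 11.99, a separation seen in 13.9% of all genes.

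Of 6 genes listed under breakdown and acetylation, 1 passed as lower and 0 as higher, where 6.77% and 7.13% of all genes did. Sat2, a relative of Sat1 reported to act weakly on polyamines, was 9.69, 8.81, 9.47, 9.41 and 9.79 with vehicle and 8.77, 8.82, 8.55, 8.70 and 9.06 after DMPT. Vehicle replicate 2 lay among the DMPT arrays, and Sat2 fell by 0.65 ± 0.17 on the log2 scale, or 1.57-fold (adjusted p = 0.0309). Without vehicle replicate 2 the difference was -0.81 (adjusted p = 0.00180), but the call was lost in 8 of the 10 omissions, with values from -0.67 to -0.57 and adjusted p up to 0.0816. Only the omission of vehicle replicate 2 or DMPT replicate 5 kept it. Aldh1a1, an aldehyde dehydrogenase, differed by 0.14 ± 0.074 and did not pass (adjusted p = 0.283). Its DMPT values, from 13.97 to 14.06, nonetheless lay above its vehicle values, from 13.79 to 13.95, a separation seen in 13.9% of all genes. Like Sat1, Aldh1a1 was measured near the top of the range, where differences can be compressed. The oxidases of spermine, Smox, and of acetylated polyamines, Paox, differed by 0.18 ± 0.13 and 0.27 ± 0.15, and neither passed.

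In transport, 1 of 8 measured genes passed as higher, where 7.13% of all genes did. Slc3a2, the heavy chain of several amino acid exchangers that has also been tied to polyamine export, was 11.95, 11.63, 11.85, 11.86 and 11.72 with vehicle and 12.29, 12.56, 12.48, 12.09 and 12.29 after DMPT. The groups did not overlap, as in 13.9% of all genes, and the rise was 0.54 ± 0.11, or 1.46-fold (adjusted p = 0.00831). Slc7a2, a carrier of cationic amino acids, was dim and differed by 0.33 ± 0.11 (adjusted p = 0.0750).

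Of 11 measured genes around ornithine and arginine, some of which make and some use them, 0 passed in either direction, where 13.9% of all genes did. Arg1, an arginase that makes ornithine, was dim, with a vehicle mean of 6.63, and differed by -0.41 ± 0.13 (adjusted p = 0.0618). Oat, which uses ornithine, differed by -0.34 ± 0.13 (adjusted p = 0.119). Without vehicle replicate 2 Oat passed at -0.43 (adjusted p = 0.0222), and without vehicle replicate 3 Arg1 passed at -0.47 (adjusted p = 0.0462). The relatives of the antizymes and their inhibitor, Oaz3 and Azin2, were dim and differed by -0.14 ± 0.10 and -0.095 ± 0.11, and neither passed. A second, dimmer Azin2 probe set differed by -0.30 ± 0.14 and did not pass (adjusted p = 0.223), with 4 DMPT arrays below all vehicle arrays. The mean of the Azin2 probe sets differed by -0.20 (adjusted p = 0.198).

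**Figure D4:**
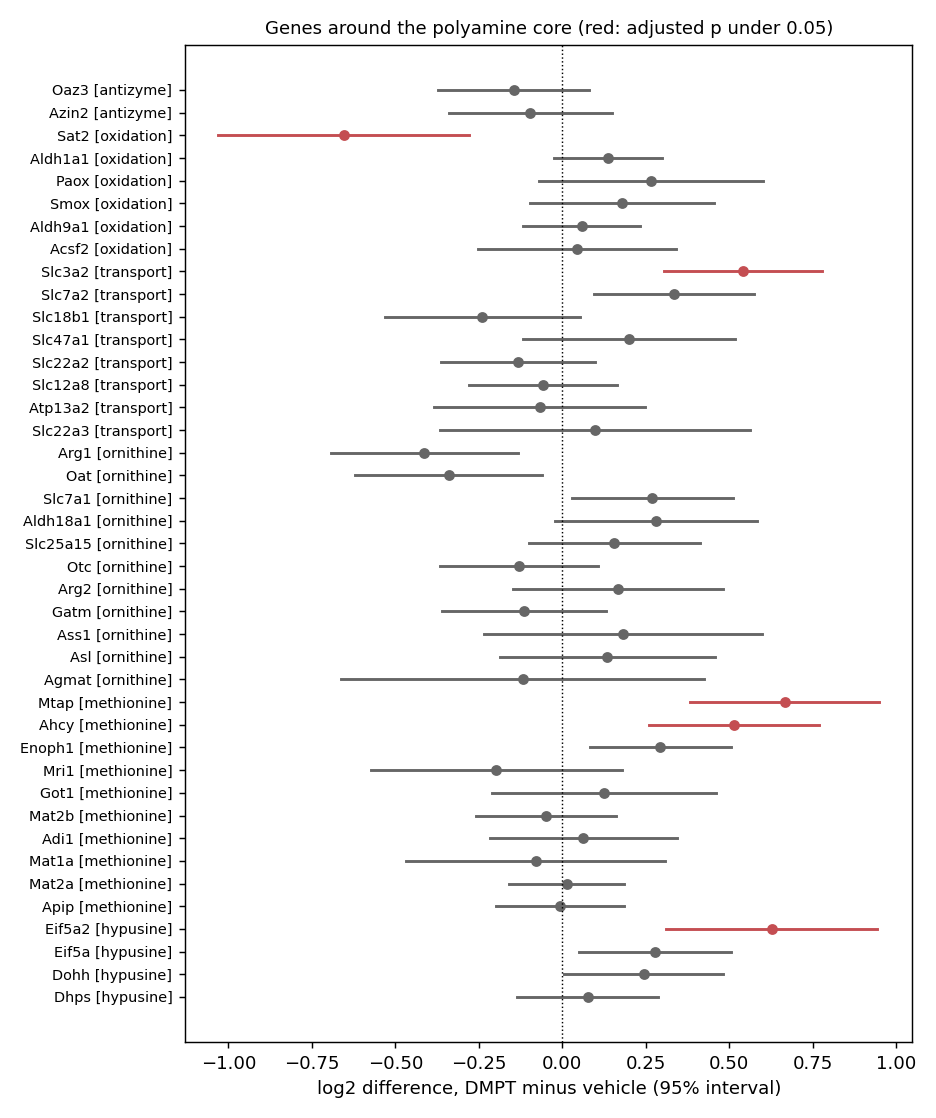
Log2 difference (DMPT minus vehicle, horizontal axis) of the 41 measured genes around the polyamine core with 95% intervals from limma, grouped by their list in brackets; red marks an adjusted p under 0.05. Slc3a2, Mtap, Ahcy and Eif5a2 lie to the right of 0 and Sat2 to the left.

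Marker lists of other cell types and of dividing cells moved between the groups beside these genes. All 8 measured markers of dividing cells were higher after DMPT, and their average level ran from 9.31 to 10.2 with vehicle and from 10.6 to 10.8 after DMPT. Of 6 ciliated cell markers 5 were lower, with average levels from 11.0 to 12.1 and from 9.76 to 11.3. Of 8 secretory and glandular markers 4 were lower (9.99 to 10.8, then 9.64 to 10.5), and of 7 endothelial markers, all below the median level, 4 were higher (6.13 to 7.21, then 7.13 to 8.32). Of 10 leukocyte markers 2 were higher (7.50 to 7.74, then 7.67 to 7.96), and of 7 olfactory markers 1 was higher and 3 lower (8.01 to 8.51, then 7.44 to 8.44). Of 8 stromal markers 0 passed (9.30 to 10.3, then 9.37 to 10.3), and of 7 muscle and cartilage markers 1 was lower (6.50 to 6.68, then 6.17 to 6.38). That 1 was Chad, which differed by -2.4, while the median difference of those 7 markers was -0.019. The part of these lists in the differences of Srm and of the other called genes was not tested.

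The genes most like Odc1 and Sat1 across the 10 arrays, after each group's mean was subtracted, were looked up among 9015 genes above the median level, as a description. For Odc1 they were Psmd4, a proteasome subunit (r = 0.992), Hspa9, a mitochondrial chaperone (r = 0.982), and Irf2bp2 (r = 0.982). Vehicle replicate 2 weighed heavily on these, and without it the correlations were 0.871, 0.811 and 0.701. For Sat1 they were Rngtt, an mRNA capping enzyme (r = 0.915), Septin4 (r = 0.906) and Cog3, a Golgi tethering subunit (r = 0.873), and without vehicle replicate 2 the correlations were 0.912, 0.918 and 0.885. None of these 6 genes passed the test between the groups, with adjusted p from 0.169 to 0.940.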

How the data were processed

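The authors deposited log2 values, 1 per probe set and animal, and the submitters' processing notes name RMA, which corrects background, equalises arrays by quantiles and summarises probes. For its version and a genome build, nothing is given in the sources used here. In all, the table held 31099 probe sets in 10 columns, of which 57 control probe sets were set aside. Symbols came from the platform annotation; all 12 member probe sets were found in the RefSeq table by Entrez ID and 0 changed name. Precision is limited by the number of arrays.

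Groups came from the sample titles and were compared by a treatment term in limma's lmFit and eBayes (limma 3.58.1, R 4.3.3), two-sided, with Benjamini-Hochberg adjustment over all 31042 probe sets and a threshold of 0.05. Values after ± are standard errors unless given as SD. Single values were also compared by exact permutation over all labelings. The fit was tested on simulated data. The series' design text names ORIOGEN with an FDR of 5%, which was not run here. The labels do not say which animals shared cages, so arrays were treated as independent.

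Around the members, 6 lists of pathway genes were used, 1 probe set per gene, the one with the highest mean. Named were all members, pathway genes that passed, the 2 with the smallest p in each list, and the 3 genes most like Odc1 and Sat1; Smox and Paox were named after their values were seen. Marker lists of 9 kinds were measured as well. Members and lists were chosen with earlier results of these data known. Alternatives were other scalings, a filter on dim probe sets, other variance models and weights, an RNA quality covariate, a replicate block, the mean of a gene's probe sets, and each array left out in turn.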

Additional observations from a re-analysis of the deposited data

Results flagged for a closer look

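Among the members and the named pathway genes, 48 groups of 5 arrays were examined for an array far from the rest of its group, and 6 had one. Chance gives about 1 in 20 for independent groups. These groups reuse the same 10 arrays, so their count cannot be set against that rate directly. Vehicle replicate 2 accounted for 4 of the 6. Its Odc1 value was 11.2, with the other vehicle arrays from 12.1 to 12.2, and its Srm value was 9.66, with the others from 10.2 to 10.4. Its value for the brighter Oaz2 probe set was 12.3 against 13.0 to 13.1, and its Eif5a value was 11.5 against 11.9 to 12.0. The Azin1 probe set 1379003_at was 7.04 in DMPT replicate 1 and between 6.79 and 6.85 in the other DMPT arrays. Aldh1a1 was 14.06 in DMPT replicate 3 and between 13.97 and 14.00 in the others.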

How the results depend on the processing

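Srm remained higher and past the threshold under all 18 alternatives, with differences from 0.58 to 0.77. Where member probe sets were counted, the number that passed as lower was 0, and the number higher was 1, or from 1 to 2 with single arrays left out. They were not counted in the fit of 1 averaged value per gene, where Srm and Amd1 passed as higher (adjusted p = 0.00530 and 0.0486). Pathway genes that passed as higher numbered from 4 to 5 with single arrays left out and from 3 to 6 under the other alternatives, 3 being with the filter on dim probe sets. Those that passed as lower numbered 2 with array weights and 2 with the mean of a gene's probe sets, and from 0 to 2 with single arrays left out. Over all probe sets, the lower count was 951 with the RNA measure as a covariate and from 1022 to 1886 with single arrays left out, the lowest being 1022 without DMPT replicate 3 and 1147 without DMPT replicate 4. The sign turned for differences that did not pass: Oaz1 was -0.027 after quantile normalization, Odc1 was -0.012 with array weights, Odc1 was -0.050 with the RNA measure as a covariate, and the mean of the Azin1 probe sets was 0.013. The brighter Sms probe set was 0.017 after subtraction of array medians, 0.033 with array weights, 0.037 with the RNA covariate and 0.024 as the mean of both, and the other was -0.091 with the RNA covariate. With single arrays left out, differences ran from -0.056 to 0.20 for Odc1, from -0.059 to 0.028 and from -0.0023 to 0.15 for Sms, from -0.19 to 0.0036 for the brighter Oaz2 probe set and from -0.14 to 0.0020 for Azin2. The cause was not tested. Slc7a2 passed after quantile normalization (0.35), with array weights (0.35), with 1 averaged value per gene (0.33) and without vehicle replicate 4 (0.40), Aldh1a1 with an intensity trend (0.14), Oat with array weights (-0.43) and Arg1 with 1 averaged value per gene (-0.41). Replicate numbers are shared by the groups. Deviations of same-numbered arrays correlated between -0.067 and 0.23, with 2 of 5 pairs over 0.1. Of the 5 vehicle arrays, 3 correlated best with the DMPT array of their own number. The numbers were not treated as pairs in the main fit. With the number as a replicate block, Srm differed by 0.71 (adjusted p = 0.0251), 1 member and 4 pathway genes were higher and 1 pathway gene lower, and over all probe sets 1545 were higher and 1825 lower. The filter on dim probe sets removed Eif5a2, Arg1, Slc7a2 and Oaz3, which have no values there. Eif5a2, Arg1, Slc7a2, Oaz3, the third Azin1 probe set and the Azin2 probe sets were dimmer than the median probe set. Their signal over background was not measured, so the sizes of their differences are uncertain.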
